A study of Homo sapiens with 6 samples.

Results

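The 10 genes described here belong to the PARP family and were taken by name, as PARP1, PARP2, PARP3, PARP4, PARP8, PARP9, PARP10, PARP12, PARP14 and PARP16, from a table of 58735 genes. Each name matched a single row, and all 10 had enough reads for testing, as did 14736 genes in all. The transcriptome was that of MDA-MB-231, an established line of triple-negative breast cancer (TNBC) cells labelled as wild type in genotype and known to carry a mutant p53. Of 6 cultures, 3 received vehicle, whose composition is not given in the sources used here, and 3 received SCH, an aqueous extract of the herb Salvia chinensis Benth, at 100 mg/l, each for 24 h in medium with fetal bovine serum. The series describes the 3 samples of each group as biological repeats, and they come from 1 cell line at 1 dose and 1 time. Poly-A RNA was sequenced to 18334857 to 20291379 counts per vehicle sample and 16836369 to 18414924 counts per SCH sample.

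PARP proteins, or ADP-ribosyltransferases, take NAD+ as substrate and attach its ADP-ribose unit to proteins or nucleic acids. Some build long poly(ADP-ribose) chains, most add a single unit, and at least one member is thought to be inactive or nearly so. PARP1, PARP2 and PARP3 bind broken DNA and help to recruit repair factors, and the first of these is the main target of the PARP inhibitors used in breast and ovarian cancer. PARP9, PARP10, PARP12 and PARP14 are known as genes that interferon can induce, with roles in antiviral defence and in signalling. PARP4, PARP8 and PARP16 fall in neither class. The question asked of the data was how the repair PARPs and the interferon-linked PARPs stood beside each other after SCH.

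SCH lowered PARP1 and raised PARP10, PARP14 and PARP8. The interferon-linked PARP10 and PARP14 rose 1.74-fold and 1.76-fold, PARP8 rose 1.36-fold, and PARP1 fell to 0.846 of its vehicle level. The other 6 members (PARP2, PARP3, PARP4, PARP9, PARP12 and PARP16) did not pass the test. The test was edgeR's quasi-likelihood test on raw counts, fitted to all tested genes with Benjamini-Hochberg adjustment and called at an adjusted p under 0.05. SCH changed much of the transcriptome by this rule, with 58.7% of tested genes called, 29.3% raised and 29.4% lowered, so that 4 of 10 members called is a smaller share than in the background. The median log2 fold change of the 10 members was 0.04, beside 0.00 over all tested genes (-0.003 before rounding).

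**Figure D1:**
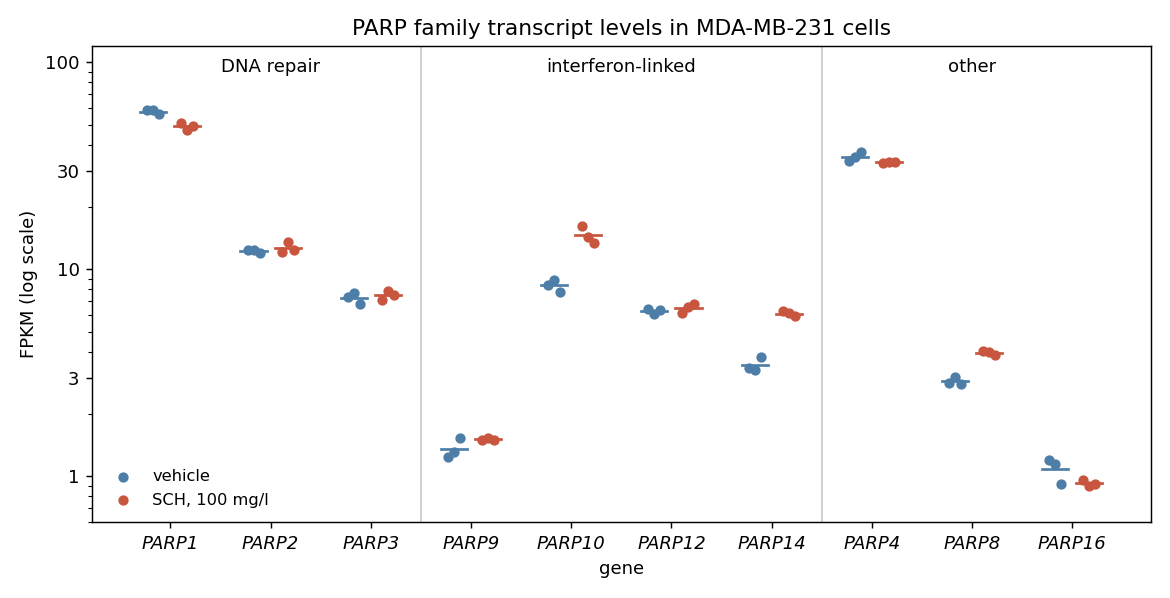
FPKM of each of the 10 members in every sample, on a log vertical axis with 1 point per sample, genes along the horizontal axis by class, blue for vehicle, red for SCH, and a line at each group mean. PARP10, PARP14 and PARP8 have all 3 SCH samples above all 3 vehicle samples, PARP1 and PARP4 have them below, and the groups of the other 5 genes overlap.

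Levels are given as FPKM, the deposited values, which are counts divided by gene length and allow genes of different length to be set side by side. Their scale was not the library total alone: relative to it, it was 0.996 to 1.01 in the vehicle samples and 0.937 to 0.941 in the SCH samples, a difference that follows the groups. Ratios and shares within a sample do not depend on this scale, and the tests were run on counts. In vehicle samples the order of FPKM was PARP1, PARP4, PARP2, PARP10, PARP3, PARP12, PARP14, PARP8, PARP9 and PARP16, from 57.8 ± 1.29 (SD, n = 3) for PARP1 down to 1.09 ± 0.148 for PARP16. Each neighbouring pair in that order was separated beyond the range of its 3 samples. After SCH the order was the same except that PARP10 passed PARP2, with 14.7 ± 1.45 against 12.7 ± 0.71 FPKM and overlapping samples. PARP12 and PARP14, which had stood apart at 6.29 ± 0.189 and 3.45 ± 0.26 FPKM, overlapped after SCH at 6.51 ± 0.33 and 6.12 ± 0.158 FPKM. The summed FPKM of the 10 members was 135.9 ± 1.15 in vehicle and 135.9 ± 2.13 in SCH samples. On the library total, a scale added after the data were seen, the sums were 135.4 ± 0.908 and 144.8 ± 1.93. Every SCH sample then lay above every vehicle sample. The sums were thus equal on the deposited scale and apart on the library total. Within that sum the share of PARP1 went from 42.6% ± 0.842 to 36.2% ± 1.01, that of PARP10 from 6.16% to 10.8%, and that of PARP14 from 2.54% to 4.5%.

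The repair PARPs were 1 lowered gene and 2 genes that did not pass the test, a called share of 33.3% beside 58.7% of all tested genes. Their median log2 fold change was 0.03, with 0.135 under scaling by library size alone and -0.011 without vehicle sample 3. PARP1 (ENSG00000143799, GRCh38 chromosome 1, 226360691 to 226408079), the enzyme that makes most of the poly(ADP-ribose) at strand breaks, had 58.6, 58.6 and 56.4 FPKM in the vehicle samples and 51.2, 47.3 and 49.0 FPKM in the SCH samples. Every SCH sample lay below every vehicle sample. The log2 fold change was -0.24 (SE 0.047, edgeR adjusted p = 1.15e-04), and -0.14 with scaling by library size alone (edgeR adjusted p = 0.0127). PARP1 is the most abundant member and the change is small, but its SD within a group was 1.29 and 1.95 FPKM against a difference of means from 57.8 to 49.2 FPKM. In bulk RNA, fewer cells of a kind and less RNA per cell cannot be told apart, and this holds for each value below.

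PARP2 (ENSG00000129484, chromosome 14, 20343582 to 20357905), the partner enzyme that acts with PARP1 at strand breaks, had 12.4, 12.4 and 12.1 FPKM in vehicle and 12.2, 13.5 and 12.4 FPKM in SCH samples. The groups overlapped, with SCH sample 2 the highest of the 6. Its log2 fold change of 0.04 (SE 0.062, edgeR adjusted p = 0.609) did not pass, and lay between 0.001 and 0.078 on leaving out each sample in turn. PARP3 (ENSG00000041880, chromosome 3, 51942345 to 51948867), which acts at double-strand breaks, had 7.35, 7.69 and 6.82 FPKM in vehicle and 7.08, 7.83 and 7.52 FPKM in SCH samples. These groups overlapped too, and vehicle sample 3 was the lowest. The log2 fold change of PARP3 was 0.03 (SE 0.081, edgeR adjusted p = 0.763), and its sign turned when vehicle sample 3 was left out. Summed over the 3 repair PARPs, FPKM went from 77.4 ± 1.91 to 69.4 ± 0.947, or from 77.2 ± 1.4 to 73.9 ± 0.838 on the library total, a sum dominated by PARP1.

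The interferon-linked PARPs were 2 raised genes and 2 that did not pass the test, beside 58.7% of all tested genes called and 29.3% raised. Their median log2 fold change was 0.47, and all 4 estimates were above 0, also in each of the 16 alternative settings tried. PARP14 and PARP10, at 0.82 and 0.80, lay well above this median, and PARP9 and PARP12, at 0.15 and 0.04, well below it. PARP14 (ENSG00000173193, chromosome 3, 122680618 to 122730840), a large macrodomain-containing enzyme that adds single ADP-ribose units, had 3.35, 3.26 and 3.75 FPKM in vehicle and 6.26, 6.14 and 5.95 FPKM in SCH samples. The lowest SCH sample was well above the highest vehicle sample. The log2 fold change was 0.82 (SE 0.065, edgeR adjusted p = 2.29e-10). PARP10 (ENSG00000178685, chromosome 8, 143977153 to 144012772), an enzyme that adds single units and was first known as a MYC-binding protein, had 8.45, 8.85 and 7.81 FPKM in vehicle and 16.3, 14.3 and 13.4 FPKM in SCH samples. Its groups were apart as well, with SCH sample 1 the highest. The log2 fold change was 0.80 (SE 0.068, edgeR adjusted p = 5.93e-10).

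The libraries came from a kit that does not mark strand, so reads where genes overlap cannot be assigned by strand. PARP10 shares 521 of its 6033 exonic bases (8.64%) with other genes, the largest part being 324 bases of GRINA on the opposite strand. GRINA was itself raised, with a log2 fold change of 0.41 (SE 0.0488, edgeR adjusted p = 1.33e-07) and 198 CPM (normalized counts scaled to a common library total) after SCH. The part of these shared reads in the PARP10 value was not tested. PARP14, PARP12, PARP1, PARP3, PARP4, PARP8 and PARP16 share no exonic base with another annotated gene.

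PARP9 (ENSG00000138496, chromosome 3, 122527924 to 122564577), a macrodomain protein that acts in a complex with the ubiquitin ligase DTX3L, was low, at 1.24, 1.31 and 1.53 FPKM in vehicle and 1.49, 1.54 and 1.5 FPKM in SCH samples. Vehicle sample 3 lay within the range of the SCH samples. Its log2 fold change of 0.15 (SE 0.102, edgeR adjusted p = 0.228) did not pass, and was 0.09 without vehicle sample 1 and 0.24 without vehicle sample 3 (edgeR adjusted p = 0.0539). With scaling by library size alone PARP9 passed at 0.25 (edgeR adjusted p = 0.0409). PARP12 (ENSG00000059378, chromosome 7, 140023744 to 140063721), a zinc-finger member found at the Golgi and in stress granules, had 6.42, 6.08 and 6.38 FPKM in vehicle and 6.16, 6.56 and 6.82 FPKM in SCH samples. The groups overlapped. The log2 fold change of PARP12 was 0.04 (SE 0.066, edgeR adjusted p = 0.599), and lay between 0.018 and 0.089 on leaving out each sample in turn.

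Ratios of FPKM within a sample, chosen after the values were seen and given without a test, show how the balance of the family moved. PARP14 to PARP1 was 0.0598 ± 0.00588 in vehicle and 0.124 ± 0.00461 in SCH samples (SD, n = 3), and PARP10 to PARP1 was 0.145 ± 0.00624 and 0.298 ± 0.0224. PARP14 to PARP9 was 2.55 ± 0.140 in vehicle and 4.05 ± 0.122 in SCH samples, and PARP10 to PARP12 was 1.33 ± 0.117 and 2.27 ± 0.342. For all of these the SCH samples were above the vehicle samples without overlap. PARP10 to PARP14, the 2 raised interferon-linked genes, stayed at 2.44 ± 0.322 and 2.40 ± 0.178 with overlapping samples. Whether the changes of the raised members differ from those of PARP9 and PARP12 was not tested.

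The 3 remaining members gave 1 raised gene, a called share of 33.3% beside 58.7% of all tested genes, and a median log2 fold change of -0.10. PARP8 (ENSG00000151883, chromosome 5, 50665899 to 50846522), a little-studied enzyme that adds single units, had 2.83, 3.02 and 2.80 FPKM in vehicle and 4.03, 3.98 and 3.84 FPKM in SCH samples. All SCH samples lay above all vehicle samples. The log2 fold change was 0.45 (SE 0.067, edgeR adjusted p = 4.83e-06). PARP4 (ENSG00000102699, chromosome 13, 24420926 to 24512810), the catalytic protein of the vault particle, was the second most abundant member, with 33.4, 34.8 and 36.8 FPKM in vehicle and 32.7, 32.8 and 32.9 FPKM in SCH samples. The SCH samples were lower without overlap, but the log2 fold change of -0.10 (SE 0.049, edgeR adjusted p = 0.0912) did not pass. With scaling by library size alone it was 0.004, and with upper-quartile scaling PARP4 passed at -0.13 (edgeR adjusted p = 0.028). PARP16 (ENSG00000138617, chromosome 15, 65234460 to 65300618), an endoplasmic reticulum membrane protein linked to the unfolded protein response, had 1.2, 1.15 and 0.921 FPKM in vehicle and 0.963, 0.898 and 0.918 FPKM in SCH samples. With a mean of 71.2 counts it was the least counted member, its groups overlapped, and its log2 fold change was -0.24 (SE 0.171, edgeR adjusted p = 0.23). This estimate equals that of PARP1 to 2 decimals, with an SE several times as large.

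**Figure D2:**
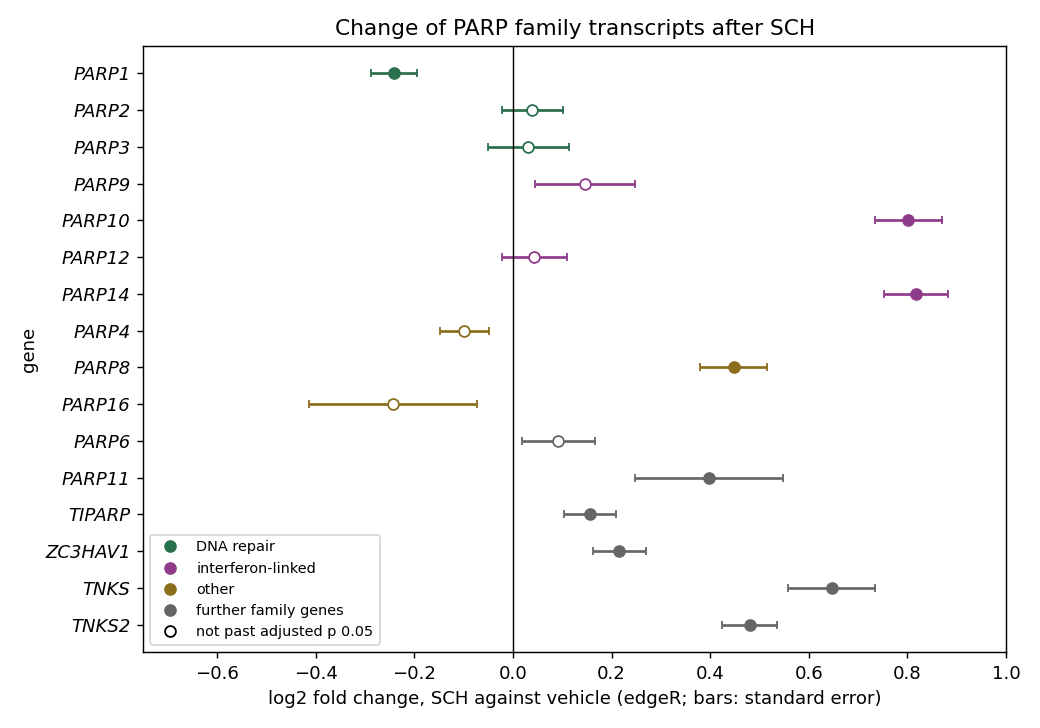
Log2 fold change of SCH against vehicle (horizontal axis) for 16 tested genes of the family (vertical axis), with bars for the standard error of the edgeR fit, colours for the class and hollow points for genes that did not pass. PARP14 at 0.82 and PARP10 at 0.80 lie farthest to the right, and PARP1 at -0.24 is the lone filled point left of 0.

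Counted by samples on normalized CPM, 5 of 10 members had SCH and vehicle samples that did not overlap (PARP1, PARP4, PARP8, PARP10 and PARP14), beside 62.4% of all tested genes. An exact two-sided permutation test over the 6 samples gave p = 0.1 for each of these, which is the smallest value that 3 samples against 3 allow. The separation of PARP4 depends on the scale, since its log2 fold change was 0.004 with scaling by library size alone. The calls of PARP1, PARP8, PARP10 and PARP14 held in each of the 16 alternative settings, among them leaving out each sample in turn. Over these settings the log2 fold change ranged from -0.27 to -0.14 for PARP1, from 0.35 to 0.55 for PARP8, from 0.73 to 0.91 for PARP10 and from 0.68 to 0.92 for PARP14.

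The wider family holds a further 7 genes, of which 6 were tested, 5 were raised and none was lowered. Their median log2 fold change was 0.31. TNKS and TNKS2 encode the tankyrases, which build poly(ADP-ribose) on proteins such as axin and mark them for destruction. TNKS went from 1.00, 1.11 and 1.03 FPKM in vehicle to 1.63, 1.79 and 1.52 FPKM in SCH samples, a log2 fold change of 0.65 (SE 0.0878, edgeR adjusted p = 1.08e-06). TNKS2 went from 11.0, 10.9 and 11.9 to 15.6, 15.9 and 15.9 FPKM, a log2 fold change of 0.48 (SE 0.0551, edgeR adjusted p = 8.97e-08). Both tankyrases thus stood higher in every SCH sample. ZC3HAV1, the antiviral zinc-finger protein ZAP, which lacks transferase activity, rose by 0.22 on the log2 scale (SE 0.054, edgeR adjusted p = 0.00148), and TIPARP, a target gene of the aryl hydrocarbon receptor, by 0.16 (SE 0.0532, edgeR adjusted p = 0.0146). PARP11, which adds single ADP-ribose units, rose by 0.40 (SE 0.149, edgeR adjusted p = 0.0259) from a low level of 0.700 ± 0.0813 FPKM. PARP6 had a log2 fold change of 0.09 (SE 0.0742, edgeR adjusted p = 0.297) and did not pass, except with scaling by library size alone (0.20, edgeR adjusted p = 0.0259). PARP15 had 0 counts in all 6 samples, which allows up to 0.148 to 0.178 CPM, here over the raw library total, by a floor of 3 counts, covering counting error only. PARP11 lost its call with DESeq2 (adjusted p = 0.101) and without vehicle sample 1, vehicle sample 2 or SCH sample 2 (log2 fold change 0.41, 0.32 and 0.37), and TIPARP lost it without SCH sample 3 (0.14) and with upper-quartile scaling (0.12). Neither passed at a threshold of 0.01. Over the whole family of 17 genes, 16 were tested, 8 were raised and 1, PARP1, was lowered, beside the background of 29.3% raised and 29.4% lowered.

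PARP9 and PARP14 lie close together on chromosome 3, 116040 bp apart. PARP9 and DTX3L sit head to head on opposite strands, and the annotated genes overlap by 340 bp, of which 217 exonic bases are shared (2.43% of PARP9 and 3.70% of DTX3L). DTX3L, the ligase partner of PARP9, had 6.61, 6.66 and 6.37 FPKM in vehicle and 8.19, 8.57 and 7.99 FPKM in SCH samples. It was higher in each SCH sample, with a log2 fold change of 0.33 (SE 0.0633, edgeR adjusted p = 1.10e-04). The FPKM ratio of DTX3L to PARP9 was 4.86 ± 0.620 and 5.46 ± 0.115, and its groups overlapped. Within 250 kb on either side of the span from PARP9 to PARP14 (chromosome 3, 122277924 to 122980840) lie 19 genes, of which 11 were tested, 4 were raised and 1 was lowered, beside 29.3% and 29.4% of all tested genes. The raised genes were PARP14, DIRC2 (0.60), WDR5B (0.41) and DTX3L, and the lowered gene was CCDC58 (-0.28), each as a log2 fold change. FAM162A (0.01), KPNA1 (0.06), LINC02035 (0.06), AC083798.2 (0.18), HSPBAP1 (-0.21) and PARP9 did not pass. The call of CCDC58 was lost with DESeq2 (adjusted p = 0.1003), with scaling by library size alone and without vehicle sample 1 or 3 or SCH sample 1 or 2, and at a threshold of 0.01, and that of WDR5B without vehicle sample 1 (edgeR adjusted p = 0.0609).

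**Figure D3:**
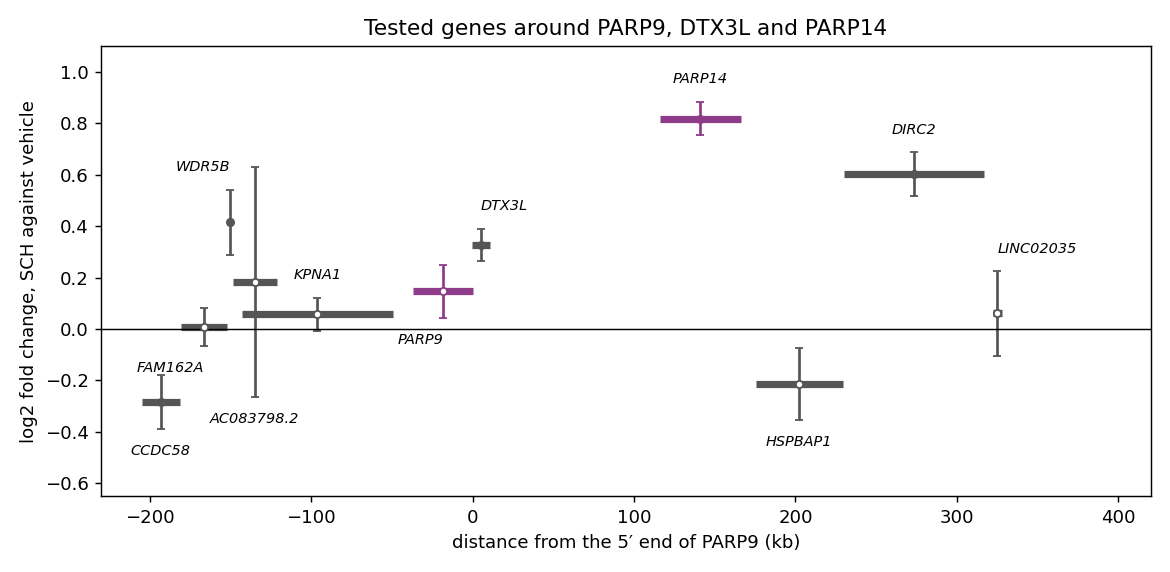
Log2 fold change of SCH against vehicle (vertical axis, bars for the standard error of the edgeR fit) for the 11 tested genes around PARP9 and PARP14, drawn at their distance in kb from the 5′ end of PARP9 (horizontal axis), where thick lines give gene extent and hollow points mark genes that did not pass. PARP14 at 0.82 is the highest of the region, while PARP9 at 0.15 and KPNA1 at 0.06 lie near 0.

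The promoters of the interferon-linked members were read for the letters of the interferon-stimulated response element (ISRE), a known element of interferon-responsive promoters that IRF9-containing complexes bind, and of the gamma-activated site (GAS), a known element of promoters that respond to interferon gamma. The windows are those of RefSeq on GRCh38.p14, 300 bases each, from 250 bases before to 50 after the annotated start. The ISRE core was searched on both strands as GAAA, any 2 bases and GAAA again, and found in 3.57% of 35116 promoters, and the GAS core as TTCNNNGAA in 7.66%. A promoter was matched for 8 of the 10 members, all but PARP4 and PARP10. The ISRE letters were present in PARP9, PARP12 and PARP14, in none of the repair members PARP1, PARP2 and PARP3, and in neither PARP8 nor PARP16. The GAS letters were present in PARP2 and PARP14. The matches are shown because they are what 3 interferon-linked members share at their starts, with the promoter of ISG15, a widely used interferon-stimulated gene, for comparison. Capitals mark the ISRE core, on the opposite strand in PARP9 and PARP12, and in PARP14 the GAS core as well.
PARP9 (chr3:122564322-122564351, minus strand): gggcgcaaagTTTCAGTTTCgcttccctgg
DTX3L (chr3:122564322-122564351, plus strand): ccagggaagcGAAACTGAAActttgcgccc
PARP12 (chr7:140062942-140062971, minus strand): ccggggccgcTTTCGGTTTCgtttcccgcc
PARP14 (chr3:122680795-122680823, plus strand): agttTTCCAGGAAacGAAAGCGAAAgagt
ISG15 (chr1:1013377-1013406, plus strand): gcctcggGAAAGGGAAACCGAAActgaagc

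PARP9 and DTX3L hold the same match, read on opposite strands. It begins 41 bases before a start of PARP9 and 6 bases before that of DTX3L, so that it runs across the DTX3L start. RefSeq gives PARP9 another promoter window (chromosome 3, 122564735 to 122565034), which does not hold these letters. The matches begin 10 bases before the start in PARP12 and 29 in PARP14. The ISRE and GAS letters of PARP14 do not overlap, and the ISG15 window has 2 overlapping ISRE matches. Of these genes with the ISRE letters, PARP14 and DTX3L were raised, and PARP9 and PARP12 did not pass. ISG15, shown for comparison, was raised with a log2 fold change of 0.65 (SE 0.0617, edgeR adjusted p = 3.82e-09). Over all genes with these letters in a promoter, 415 were tested, 32.3% were raised and 33.3% lowered, beside 31.9% and 30.1% of 9936 tested genes with a promoter and none. Among the interferon-stimulated genes listed below, 12 of 17 tested genes with the letters were raised (70.6%, median log2 fold change 0.52), beside 2 of 5 with a promoter and none (40.0%, median 0.13). A match describes letters in a window and is not a measurement of binding.

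The interferon pathway itself was read from 2 lists, to be set beside 29.3% of all tested genes raised and 29.4% lowered. Of 15 ligands, receptors and factors, 13 were tested, 12 were raised and none was lowered. The list had 0.52 as its median log2 fold change. The number raised was 10 with DESeq2 and without vehicle sample 1 or 2, and 11 without a filter on low counts and without vehicle sample 3 or any single SCH sample. IRF7, a factor that drives interferon transcription, went from 7.51, 6.83 and 7.17 FPKM in vehicle to 31.7, 31.8 and 31.6 FPKM in SCH samples, a log2 fold change of 2.14 (SE 0.0653, edgeR adjusted p = 1.22e-17). STAT2, a signal transducer of interferon receptors, was raised by 0.87 (SE 0.0578) and its DNA-binding partner IRF9, on 15 to 31 counts per sample, by 0.76 (SE 0.314, edgeR adjusted p = 0.0405) on the log2 scale, as was the receptor kinase TYK2 by 0.57. The call of IRF9 was lost with DESeq2 (adjusted p = 0.159), without a filter, and on leaving out any single sample but SCH sample 3, with log2 fold changes from 0.59 to 0.82 in those fits, and IRF9 did not pass at a threshold of 0.01. IFNAR2, a receptor chain, did not pass at 0.20. The ligand IFNB1 had 0 counts in all samples, and IFNL1 had 0, 1 and 1 counts in vehicle and 5, 4 and 4 counts in SCH samples and was not tested. Of 31 interferon-stimulated genes other than the PARPs, 29 were tested, 19 went up and 1 went down, and the median was 0.45. The number lowered was 2 without vehicle sample 2 or any single SCH sample and with the replicate number as a block, and 3 with upper-quartile scaling or with at least 10 counts required in every sample, while 19 to 21 were raised in all settings run. IFI6 (1.24), USP18 (1.22), SAMD9 (0.93) and IFI27 (0.80) were raised and EPSTI1 (-1.51) was lowered. Of the 29 tested, 21 had estimates above 0 and 9 did not pass. By normalized CPM, every SCH sample lay above every vehicle sample for 19 of them and below for 5, beside 31.1% and 31.3% of all tested genes. The estimates of the tested interferon-stimulated genes ran from -1.51 to 1.24, a range that holds every PARP member. PARP14 and PARP10, at 0.82 and 0.80, lay above the median of the list, and PARP9 and PARP12, at 0.15 and 0.04, under it.

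**Figure D4:**
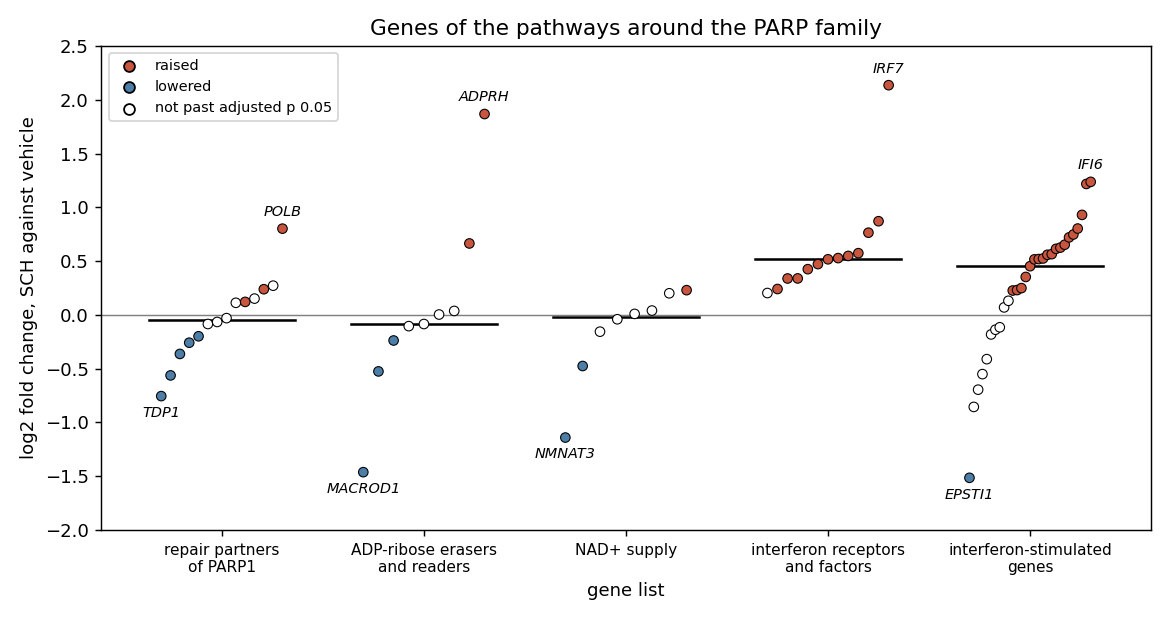
Log2 fold change of SCH against vehicle (vertical axis) of every tested gene in 5 lists (horizontal axis), with 1 point per gene in rank order, red where raised, blue where lowered and white where not passed, and a bar at each median. All 13 tested interferon factors, median 0.52, and 21 of 29 tested interferon-stimulated genes, median 0.45, lie above 0. The repair partners of PARP1, median -0.05, spread on both sides.

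PARP1 works with a set of strand-break repair proteins, and these moved in both directions. Of 14 partners, all were tested, 3 were raised and 5 were lowered, a called share of 57.1% beside 58.7% of all tested genes. With scaling by library size alone, 6 were raised and 4 were lowered. The median of the partners was -0.05 (log2). POLB, the gap-filling polymerase of base excision repair, went from 4.47, 4.01 and 4.19 FPKM to 7.40, 7.29 and 7.52 FPKM, a log2 fold change of 0.80 (SE 0.0774, edgeR adjusted p = 5.39e-09). TDP1, which clears trapped topoisomerase from DNA ends, went from 10.5, 10.7 and 11.3 to 6.36, 6.26 and 6.72 FPKM, a log2 fold change of -0.76 (SE 0.0618, edgeR adjusted p = 3.34e-10). The groups of both genes were far apart. APEX1, the abasic-site nuclease, fell by 0.56, LIG3, the ligase that seals nicks with XRCC1, by 0.36, and CHD1L, a chromatin remodeller recruited by poly(ADP-ribose), by 0.26 on the log2 scale. XRCC1, the scaffold that binds poly(ADP-ribose), had -0.03 (SE 0.0919, edgeR adjusted p = 0.798), and HPF1, the cofactor that directs PARP1 to serine, had 0.15 (edgeR adjusted p = 0.104). The estimate for PARP1 itself, at -0.24, was closest to that of CHD1L among these lowered genes, and differences between genes were not tested.

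The enzymes that remove or read ADP-ribose and those that supply NAD+ had called shares of 55.6% and 37.5%, which do not exceed the background of 58.7%. Of 9 erasers and readers, all were tested, 2 were raised (1 with at least 10 counts required in every sample) and 3 were lowered. The median of these was -0.09 (log2). PARG, which cuts the chains that PARP1 and PARP2 make, had 8.22, 7.74 and 9.37 FPKM in vehicle and 8.71, 8.30 and 8.5 FPKM in SCH samples. These overlapped, with a log2 fold change of 0.00 (0.0033 before rounding, SE 0.0708, edgeR adjusted p = 0.971). RNF146, the ligase that reads tankyrase products, rose by 0.66, and ADPRH, an arginine ADP-ribose hydrolase, by 1.87. ADPRH had 2, 5 and 7 counts in vehicle and 17, 19 and 16 counts in SCH samples. It thus reached testing through the SCH group, where it is high, and its call carries that limit. MACROD1, a mitochondrial macrodomain hydrolase, fell by 1.46, OARD1, a nuclear one, by 0.53, and the histone variant gene H2AFY, whose product binds ADP-ribose, by 0.24. Of 8 tested genes of NAD+ supply, NADSYN1 was raised (0.23) and NMNAT3 (-1.14, on 9 to 39 counts) and NMNAT2 (-0.48) were lowered. The number raised in this list was 2 without vehicle sample 2, without SCH sample 2 and with scaling by library size alone, and the number lowered was 1 with at least 10 counts in every sample and on log2(FPKM + 1). NAMPT, the rate-limiting enzyme of the salvage route, had 55.6 ± 2.63 and 54.3 ± 2.04 FPKM, a log2 fold change of -0.04 (SE 0.049, edgeR adjusted p = 0.497). Of 5 known binding partners of PARP9, PARP4 and PARP16, 4 were raised, beside 29.3% of all tested genes. Besides DTX3L these were the vault proteins TEP1 (1.21) and MVP (0.29), which assemble with PARP4, and ERN1 (0.88), the stress sensor modified by PARP16, while EIF2AK3, the other such sensor, had 0.18 (edgeR adjusted p = 0.138) and passed with scaling by library size alone (0.28, edgeR adjusted p = 0.0213). The enzymes PARP4 and PARP16 themselves did not pass the test.

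Among 10705 tested genes with a mean of at least 100 counts, the patterns most like PARP1 across the 6 samples were those of TNPO2 (Pearson r = 0.999), RPS15 (0.998) and ARHGAP22 (0.998), with log2 fold changes of -0.42, -0.43 and -0.63. Most like PARP9 were FUT10 (0.993), TUG1 (0.991) and ZNF148 (0.991), with 0.14, 0.11 and 0.15. These r values are descriptions of normalized log2 CPM over samples that share 1 contrast, and genes whose groups differ the same way all correlate.

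The labelled cell type was compared with its markers. The mesenchymal-type markers VIM, CD44, EGFR, MSN, CAV1 and AXL were abundant, from 43.2 ± 1.53 FPKM for EGFR to 293 ± 7.40 FPKM for AXL in vehicle, and summed to 918 ± 8.18 FPKM. After SCH the sum was 630 ± 2.21 FPKM, since 5 of the 6 were lowered (AXL to 164, CAV1 from 103 to 45.9 and VIM from 264 to 180 FPKM, with EGFR and MSN) and CD44 was not. Luminal breast markers summed to 11.4 and 9.10 FPKM, the most abundant being EPCAM at 6.53 and 4.59 FPKM, with GATA3 lowered and FOXA1 raised, while the receptors ESR1 and PGR were at or near 0. Blood and endothelial markers summed to 0.353 and 0.193 FPKM, led by PTPRC in vehicle at 0.210 FPKM and by PECAM1 after SCH at 0.151 FPKM, with HBB at 0 in all samples. Fibroblast markers summed to 0.678 and 0.990 FPKM, led by COL1A1 at 0.481 and 0.819 FPKM, with DCN at 0. PTPRC had 39, 37 and 34 counts in vehicle and 4, 9 and 3 counts in SCH samples, so that it reached testing through the vehicle group, where it is high. COL1A1 was raised at its low level, and the part of any of these markers in the PARP values was not tested.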

How the data were processed

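Poly-A RNA of 3 vehicle and 3 SCH cultures was sequenced, and the sample titles gave the groups. The deposited files hold unnormalized read counts of each gene and, made by the authors from them, FPKM per sample. The FPKM values were checked to follow count over gene length, with a scale of 0.996 to 1.01 times that of the total count in vehicle and 0.937 to 0.941 times in SCH samples. The submitters' processing notes name CASAVA 1.8, HISAT2 2.0.5, featureCounts 1.5.0-p3, DESeq2 1.20.0 and GRCh38; the strand setting of the counting is not given in the sources used here. Gene coordinates are those of the deposited files.

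The counts of SCH and vehicle were compared by the quasi-likelihood test of edgeR 4.0.16 under R 4.3.3 (TMM, filterByExpr, Benjamini-Hochberg adjustment, threshold 0.05), which kept 14736 of 58735 genes. The SE was derived from the F statistic, as the size of the log2 fold change over its square root. No 2 samples of a group were copies, with a chi-square of 2.12 to 5.81 per degree of freedom between their counts. Alternatives were other scalings, filters and thresholds, DESeq2 1.42.0, limma 3.58.1 on log2 FPKM, a replicate block and leaving out each sample. In counts simulated for this comparison over 14547 genes, of which 198 were changed, 97.1% of genes changed by 1 or more on the log2 scale and 82.3% of those changed by 0.5 were recovered, and 5.67% of the calls were false; a change as broad as that in the data was not simulated.

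The members and lists were chosen with earlier results of these data known, so lists are described by counts and medians, without a set test. The genes named are all members, the 7 further family genes, up to 5 called genes per list with groups that do not overlap (1 gene under this rule is not reported here), the tested neighbours of PARP9 and PARP14, the 3 genes most like PARP1 and PARP9, and the markers. Genes that did not pass in those lists (XRCC1, HPF1, PARG, NAMPT, IFNAR2, EIF2AK3), GRINA, and the untested IFNB1 and IFNL1 were named after their values were seen.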

Additional observations from a re-analysis of the deposited data

How the results depend on the processing

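The calls of PARP1, PARP8, PARP10 and PARP14 held under all 16 alternatives. Of 160 values of the 10 members, 155 kept direction and side of the threshold, 2 newly passed it and 3 changed sign. The values at the stricter threshold come from the main fit, so their direction could not change. Scaling by library size alone moved the median of all genes from -0.003 to 0.10 (log2) and the split from 4318 raised and 4332 lowered to 5519 and 3295. It moved the medians of the repair and interferon-linked PARPs to 0.14 (0.135) and 0.58 (0.577), passed PARP9 at 0.25 (edgeR adjusted p = 0.0409) and turned PARP4 to 0.004. Upper-quartile scaling gave 2 lowered members, adding PARP4 at -0.13 (edgeR adjusted p = 0.028), and put PARP3 at -0.001. On log2(FPKM + 1), where low genes are compressed, the interferon-linked median was 0.38. Leaving out each sample in turn put PARP3 between -0.011 (without vehicle sample 3) and 0.077. The TMM factors, which scaling by library size alone leaves out, were 0.961 to 0.971 in vehicle and 1.034 to 1.038 in SCH samples. The cause of these changes was not tested.

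Same-numbered vehicle and SCH samples did not deviate together (r = 0.042, -0.022 and 0.018), so they share only a number. With the replicate number as a block, 4355 genes were raised and 4350 lowered, and among the members 3 and 1.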
